A study of Rattus norvegicus with 9 samples.

Results

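Insulin and insulin-like growth factor 1 (IGF1) signal through a short chain of proteins, and 8 genes of that chain were followed in pancreatic islets of diabetic rats. They encode the receptors (Insr, Igf1r), the docking adaptors (Irs1, Irs2), a regulatory subunit of phosphoinositide 3-kinase (Pik3r1), the kinases (Akt1, Akt2) and a transcription factor at the end of the chain (Foxo1). The genes were chosen by name, and all probe sets that the platform annotation gives to 1 of them were taken. That gave 17 probe sets for 8 genes, of 31042 probe sets and 14217 named genes. Of the 17, 14 probe sets of 7 genes passed a filter on brightness, and Irs1 was left with no tested probe set.

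The bound receptor phosphorylates IRS proteins, these recruit phosphoinositide 3-kinase through its regulatory subunit, and the lipid it makes brings AKT to the membrane. Active AKT phosphorylates FOXO1 and keeps it out of the nucleus. In islets this chain is known for its part in beta cell growth and survival. In rodents, loss of Irs2 leads to failing beta cell mass and diabetes, whereas loss of Irs1 mainly slows growth and insulin action. FOXO1 and the beta cell factor PDX1 oppose each other in mouse beta cells.

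All rats were male Zucker Diabetic Fatty rats homozygous for the fa mutation of the leptin receptor, bought at 5 weeks of age and fed the Purina 5008 diet. The treated group (9 weeks of age) had rosiglitazone, an insulin sensitiser that activates PPAR gamma, mixed into its food from week 5 to week 9, as powdered Avandia tablets and at 3 mg per kg body weight. The withdrawal group (11 weeks of age) had the same course and then 2 weeks without the drug. The untreated group (13 weeks of age) had no rosiglitazone. RNA of isolated islets was hybridised to Affymetrix Rat Genome 230 2.0 arrays, with 3 arrays, called biological replicates by the labels, in each group. Each group thus had its own age, and treatment and age cannot be told apart in any comparison. Whether 1 array held the islets of 1 rat is not given in the sources used here, so the p-values measure the spread between these samples.

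The 9 arrays had medians of 5.736 to 5.806 and standard deviations of 1.649 to 1.997 on the log2 scale. The treated arrays spread their values most, so the difference between groups depended on brightness. Probe sets in the brightest decile differed, at the median, by 0.53 between treated and untreated arrays (treated minus untreated) and by −0.72 between withdrawal and treated arrays, against −0.03 and 0.06 in the dimmest decile. Values below are log2 levels as deposited unless quantile normalization, which gives all arrays the same distribution, is named, and differences are log2 differences. Acinar enzyme genes, 7 of 7 with a probe set, averaged 13.88 to 14.04 on all arrays, where the highest value of any probe set was 14.36. The islet preparations therefore held RNA of exocrine cells, and in bulk samples fewer cells of a type and less RNA per cell cannot be told apart.

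Insr, Igf1r and Foxo1 had a brightest probe set past the threshold in both comparisons that involve the treated group. The 250 bases before their RefSeq start in assembly GRCr8 are shown so that the promoters stand beside those changes. Capitals mark matches, on either strand, to short motifs searched for: GTAAACA (the FOXO core), CAAAACAA (an insulin response sequence), TGACGTCA (the cyclic AMP response element), TGACG (its core, part of the former), CACGTG (E-box), GGGCGG (GC box) and the PPAR response element of the direct repeat kind. The GC box in the Igf1r sequence does not overlap its E-box.
Insr, chr12:6128804-6129053, minus strand: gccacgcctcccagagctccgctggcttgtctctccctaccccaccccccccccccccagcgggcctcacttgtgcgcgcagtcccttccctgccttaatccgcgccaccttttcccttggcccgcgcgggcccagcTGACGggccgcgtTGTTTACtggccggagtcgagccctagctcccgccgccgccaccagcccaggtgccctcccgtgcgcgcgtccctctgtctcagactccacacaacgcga
Igf1r, chr1:130959747-130959996, plus strand: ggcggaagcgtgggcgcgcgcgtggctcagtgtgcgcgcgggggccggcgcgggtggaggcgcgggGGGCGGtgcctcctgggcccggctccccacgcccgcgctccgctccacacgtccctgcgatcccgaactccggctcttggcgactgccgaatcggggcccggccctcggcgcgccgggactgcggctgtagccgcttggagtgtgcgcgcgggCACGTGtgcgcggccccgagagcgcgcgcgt
Foxo1, chr2:138462724-138462973, plus strand: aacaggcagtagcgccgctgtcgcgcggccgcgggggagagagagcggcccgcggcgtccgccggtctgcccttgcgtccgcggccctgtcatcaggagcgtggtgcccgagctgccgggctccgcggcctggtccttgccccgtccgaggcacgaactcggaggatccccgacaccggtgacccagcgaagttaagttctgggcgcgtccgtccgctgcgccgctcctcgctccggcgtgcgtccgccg
All 3 are rich in G and C, at 71.2%, 79.6% and 74.4%, against a median of 51.2% over 33469 promoter windows of the same length. The Insr window held a match to the FOXO core, 100 to 94 bases before the start, and 3.21% of all windows held one. It also held TGACG, found in 18.2% of all windows. The Igf1r window held an E-box (5.59% of all windows) 31 to 26 bases before the start, and a GC box (30.5%). None of the searched letters was in the Foxo1 window. Promoters of 7 of the 8 genes were in the table, and in none of them was CAAAACAA (1.94% of all windows), TGACGTCA (1.59%) or the PPAR response element (0.0508%) found. The Insr window was the 1 of 7 with the FOXO core. A match of letters is a description and not a binding site.

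Insr, the insulin receptor, was lower on treated arrays in its brighter probe set only. Its brighter probe set (1369051_at) read 4.83, 5.27 and 4.72 on treated arrays, 5.46, 5.52 and 5.47 on withdrawal arrays and 5.35, 5.45 and 5.34 on untreated arrays. All treated values lay below all others, and the withdrawal values lay just above the untreated ones. The treated arrays averaged 4.94 ± 0.29 (SD, n = 3), the withdrawal arrays 5.48 ± 0.03 and the untreated arrays 5.38 ± 0.06. Treated arrays were lower than untreated arrays by a difference of −0.44 ± 0.15 (SE; limma adjusted p = 0.0417), a ratio of 0.737, and withdrawal arrays were higher than treated arrays by 0.54 (adjusted p = 0.0113). Probe sets of its brightness decile had median differences of −0.03 and 0.06. After quantile normalization the differences were −0.39 (adjusted p = 0.0527) and 0.46 (adjusted p = 0.02). The call between treated and untreated arrays was kept in 1 of 9 fits with an array omitted, and that between withdrawal and treated arrays in 9 of 9 (6 of 9 after quantile normalization). Withdrawal minus untreated was 0.10, with a 95% interval of −0.22 to 0.42.

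The other Insr probe set (1392043_at) was dim, at the 14.5th percentile of mean brightness, and was not tested with the rest. It read 4.19, 4.31 and 4.04 on treated, 3.99, 3.95 and 3.87 on withdrawal and 3.81, 3.95 and 3.88 on untreated arrays, and so was higher, not lower, on treated arrays. In a fit without the filter its difference was 0.30 for treated minus untreated (adjusted p = 0.07) and −0.24 for withdrawal minus treated (adjusted p = 0.108). The direction for Insr thus rests on the brighter probe set, itself at the 39.7th percentile.

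Igf1r, the IGF1 receptor, had 2 probe sets of nearly equal brightness that differed in pattern. The brightest (1392492_at) read 8.43, 8.32 and 8.07 on treated, 7.43, 7.61 and 7.86 on withdrawal and 7.91, 7.41 and 7.47 on untreated arrays. Every treated value lay above all others, and the withdrawal and untreated values overlapped. It was higher on treated than on untreated arrays by 0.68 ± 0.17 (adjusted p = 0.0142), a ratio of 1.60, and lower on withdrawal than on treated arrays by a difference of −0.64 (adjusted p = 0.0101). Each call was kept in 8 of 9 fits with an array omitted, the first being lost without untreated array 2 and the second without withdrawal array 1. Its brightness decile had medians of 0.27 and −0.40. After quantile normalization these differences were 0.36 (adjusted p = 0.0967) and −0.25 (adjusted p = 0.198), and neither passed.

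The second Igf1r probe set (1368123_at) read 7.43, 7.79 and 7.78 on treated, 8.04, 7.86 and 7.75 on withdrawal and 7.74, 7.76 and 7.60 on untreated arrays. The 3 groups overlapped as deposited. Treated minus untreated was −0.04 (95% interval −0.34 to 0.26) and withdrawal minus treated was 0.22 (adjusted p = 0.222). After quantile normalization the second was 0.56 and passed (adjusted p = 0.0263), with withdrawal arrays the higher. The brightest probe set was called as deposited, the other after quantile normalization, and the directions were opposite, so no direction is given for Igf1r as a gene. The difference between its probe sets was not tested.

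**Figure D1:**
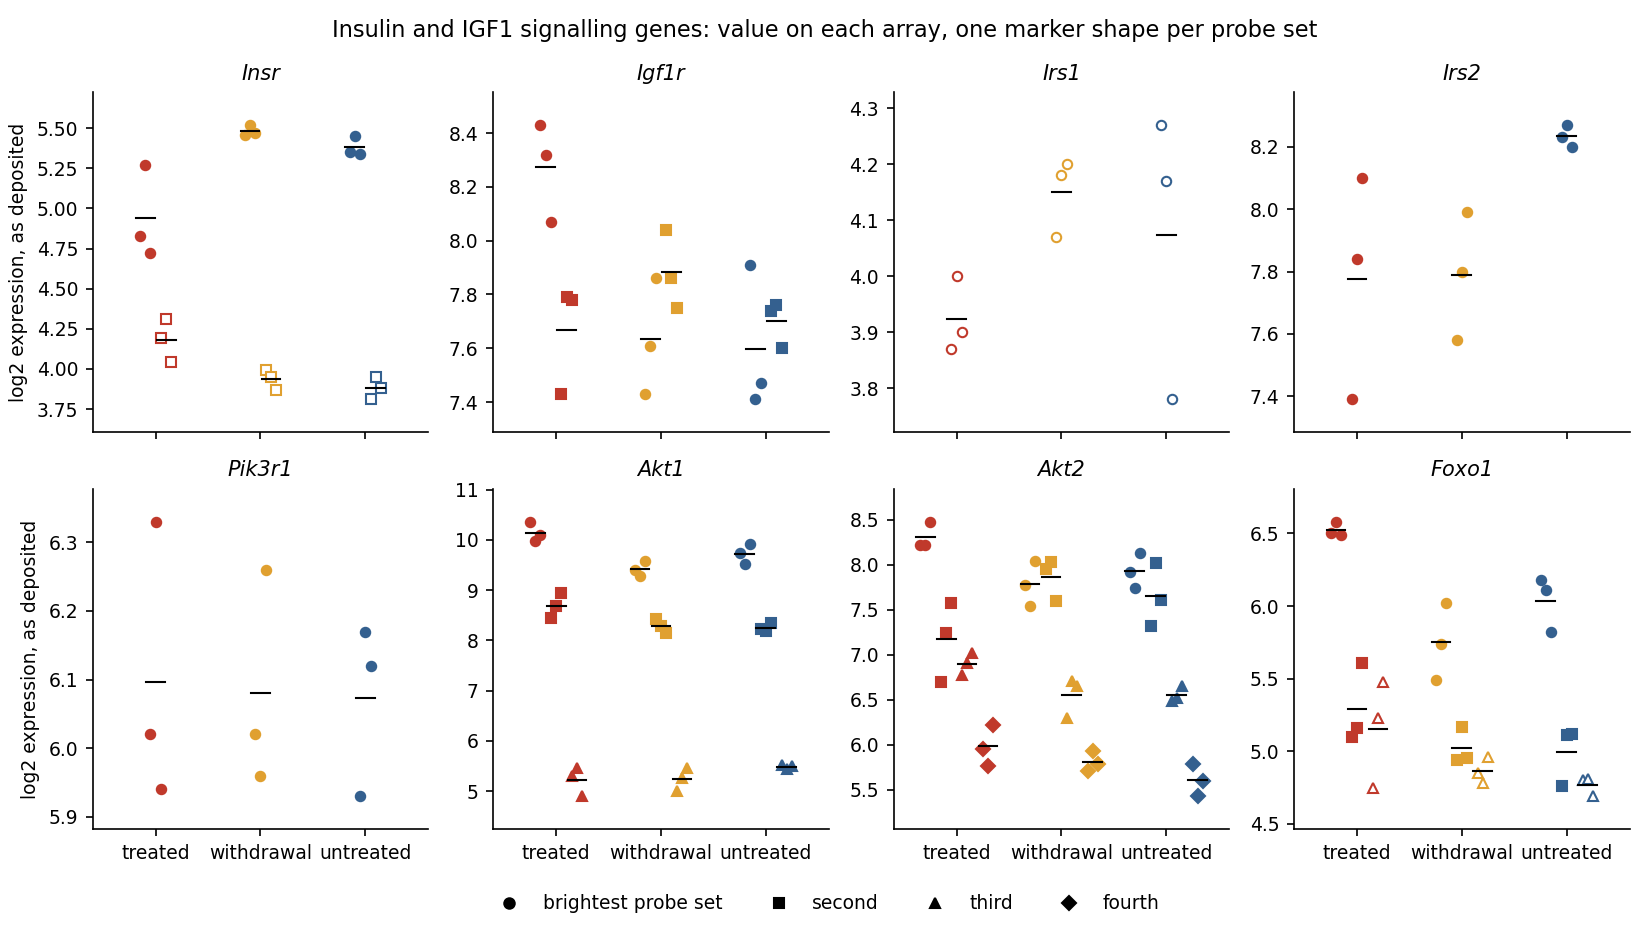
Log2 expression as deposited (vertical axis, scaled separately in each panel) on each array of the treated, withdrawal and untreated groups, for the 8 genes. Each point is 1 array, marker shapes separate the probe sets of a gene, black bars are group means (n = 3), and open markers are probe sets below the brightness filter; the 3 treated values of the brightest Foxo1 probe set lie between 6.49 and 6.58, above all other groups, and the 3 untreated values of Irs2 lie between 8.20 and 8.27.

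Irs2, the adaptor on which beta cell mass depends in mice, was highest in untreated rats. Its 1 probe set (1371091_at) read 7.39, 7.84 and 8.10 on treated, 7.58, 7.80 and 7.99 on withdrawal and 8.23, 8.27 and 8.20 on untreated arrays. All 3 untreated values lay above all values of both groups that had received rosiglitazone, and those groups overlapped with each other. The untreated arrays were close together at 8.23 ± 0.04, the treated arrays spread at 7.78 ± 0.36 and the withdrawal arrays at 7.79 ± 0.21. Treated minus untreated was −0.45 ± 0.17 (adjusted p = 0.0705) and did not pass, although probe sets of like brightness had a median of 0.38. After quantile normalization the difference was −0.74 ± 0.20 (adjusted p = 0.0272), a ratio of 0.6, and Irs2 was then lower under the drug. That call was lost when any 1 of the untreated arrays was left out. Withdrawal minus untreated was −0.44 (95% interval −0.83 to −0.06; adjusted p = 0.596) and withdrawal minus treated 0.01 (95% interval −0.37 to 0.39).

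Irs1, the other main adaptor, was dim. Its probe set (1369771_at) read 3.87, 4.0 and 3.90 on treated, 4.07, 4.18 and 4.20 on withdrawal and 4.27, 4.17 and 3.78 on untreated arrays, at the 15.5th percentile of mean brightness. At this level the values do not show whether Irs1 differed. In a fit without the filter, withdrawal minus treated was 0.23 (adjusted p = 0.208).

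Pik3r1, the regulatory subunit that joins IRS proteins to the kinase, was level. Its probe set (1370114_a_at) read 6.02, 6.33 and 5.94 on treated, 6.02, 5.96 and 6.26 on withdrawal and 5.93, 6.17 and 6.12 on untreated arrays. The groups overlapped entirely, with differences of 0.02, 0.00 and −0.02 and 95% intervals within −0.33 and 0.33.

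Akt1, the kinase gene with the brightest probe set of all 8 genes, followed the shift of bright probe sets. That probe set (1383126_at) read 10.36, 9.97 and 10.10 on treated, 9.41, 9.28 and 9.57 on withdrawal and 9.74, 9.53 and 9.91 on untreated arrays. Treated values lay above those of the other groups. Withdrawal arrays were lower than treated arrays by a difference of −0.73 ± 0.15 (adjusted p = 0.00317), where the median of its brightness decile was −0.72. Treated minus untreated was 0.41 (adjusted p = 0.0557), with a decile median of 0.53. After quantile normalization the differences were 0.01 (95% interval −0.21 to 0.22) and −0.15 (95% interval −0.37 to 0.06), so the first no longer passed and the second had changed sign.

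The second Akt1 probe set (1368862_at) read 8.45, 8.68 and 8.94 on treated, 8.42, 8.28 and 8.14 on withdrawal and 8.22, 8.19 and 8.35 on untreated arrays. It passed in both comparisons with the treated group, at 0.44 (adjusted p = 0.041) over untreated arrays and −0.42 (adjusted p = 0.0351) for withdrawal minus treated, and in neither after quantile normalization, at 0.05 and 0.10. The first of these calls was kept in 1 of 9 fits with an array omitted and the second in 4 of 9. The last, dimmer probe set (1375178_at), with values from 4.90 to 5.52, passed nowhere.

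Akt2, the isoform most tied to glucose handling in insulin target tissues, had 4 tested probe sets. The brightest (1388765_at) read 8.22, 8.22 and 8.48 on treated, 7.78, 7.54 and 8.04 on withdrawal and 7.92, 7.74 and 8.13 on untreated arrays. Withdrawal minus treated was −0.52 ± 0.16 (adjusted p = 0.0199), beside a decile median of −0.50, and −0.11 after quantile normalization (95% interval −0.44 to 0.22). Treated minus untreated was 0.38 (adjusted p = 0.092), equal to the decile median. Akt1 and Akt2 in their brightest probe sets thus differed between groups by about as much as other probe sets of their brightness.

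The second Akt2 probe set (1378425_at) ran the other way. It read 6.70, 7.24 and 7.58 on treated, 7.96, 8.03 and 7.60 on withdrawal and 7.32, 8.02 and 7.61 on untreated arrays, with the treated arrays the lowest group. Withdrawal arrays were higher than treated arrays by 0.69 ± 0.23 (adjusted p = 0.0285) as deposited and by 0.98 ± 0.27 (adjusted p = 0.0207) after quantile normalization. The other Akt2 probe sets (1368832_at and 1387353_at) had differences of 0.35 (adjusted p = 0.0771) and 0.38 (adjusted p = 0.0754) for treated minus untreated and did not pass. Since called probe sets of Akt2 had opposite signs, no direction is given for the gene.

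Foxo1, the transcription factor that AKT holds in check, was higher under the drug and lower after it was stopped. Its brightest probe set (1376779_at) read 6.50, 6.58 and 6.49 on treated, 5.49, 5.74 and 6.02 on withdrawal and 6.18, 6.11 and 5.82 on untreated arrays. The treated values were close together and above all others, while withdrawal and untreated values overlapped. The means were 6.52 ± 0.05 (SD, n = 3), 5.75 ± 0.26 and 6.04 ± 0.19. Withdrawal arrays were lower than treated arrays by a difference of −0.78 ± 0.15 (adjusted p = 0.00264), a ratio of 0.584, and by −0.75 (adjusted p = 0.00493) after quantile normalization. On both scales this call was kept in 9 of 9 fits with an array omitted, and its brightness decile had a median of −0.05. Treated arrays were higher than untreated arrays by 0.48 ± 0.15 (adjusted p = 0.0343), a ratio of 1.40, beside a decile median of 0.06, and by 0.43 (adjusted p = 0.0633) after quantile normalization. That call was kept in 4 of 9 fits. Withdrawal minus untreated was −0.29 (95% interval −0.62 to 0.04; adjusted p = 0.734).

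In both comparisons with the treated arrays, the dimmer Foxo1 probe sets had the sign of the brightest; 1 was tested and did not pass, and the other lay below the filter. The second (1375688_at) read 5.10, 5.16 and 5.61 on treated, 4.94, 5.17 and 4.95 on withdrawal and 4.76, 5.11 and 5.12 on untreated arrays, with a difference of 0.29 (adjusted p = 0.195) for treated minus untreated and −0.26 (adjusted p = 0.204) for withdrawal minus treated. The third (1377502_at), below the filter, read 4.75, 5.23 and 5.48 on treated, 4.85, 4.78 and 4.96 on withdrawal and 4.80, 4.81 and 4.69 on untreated arrays. These groups overlapped.

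**Figure D2:**
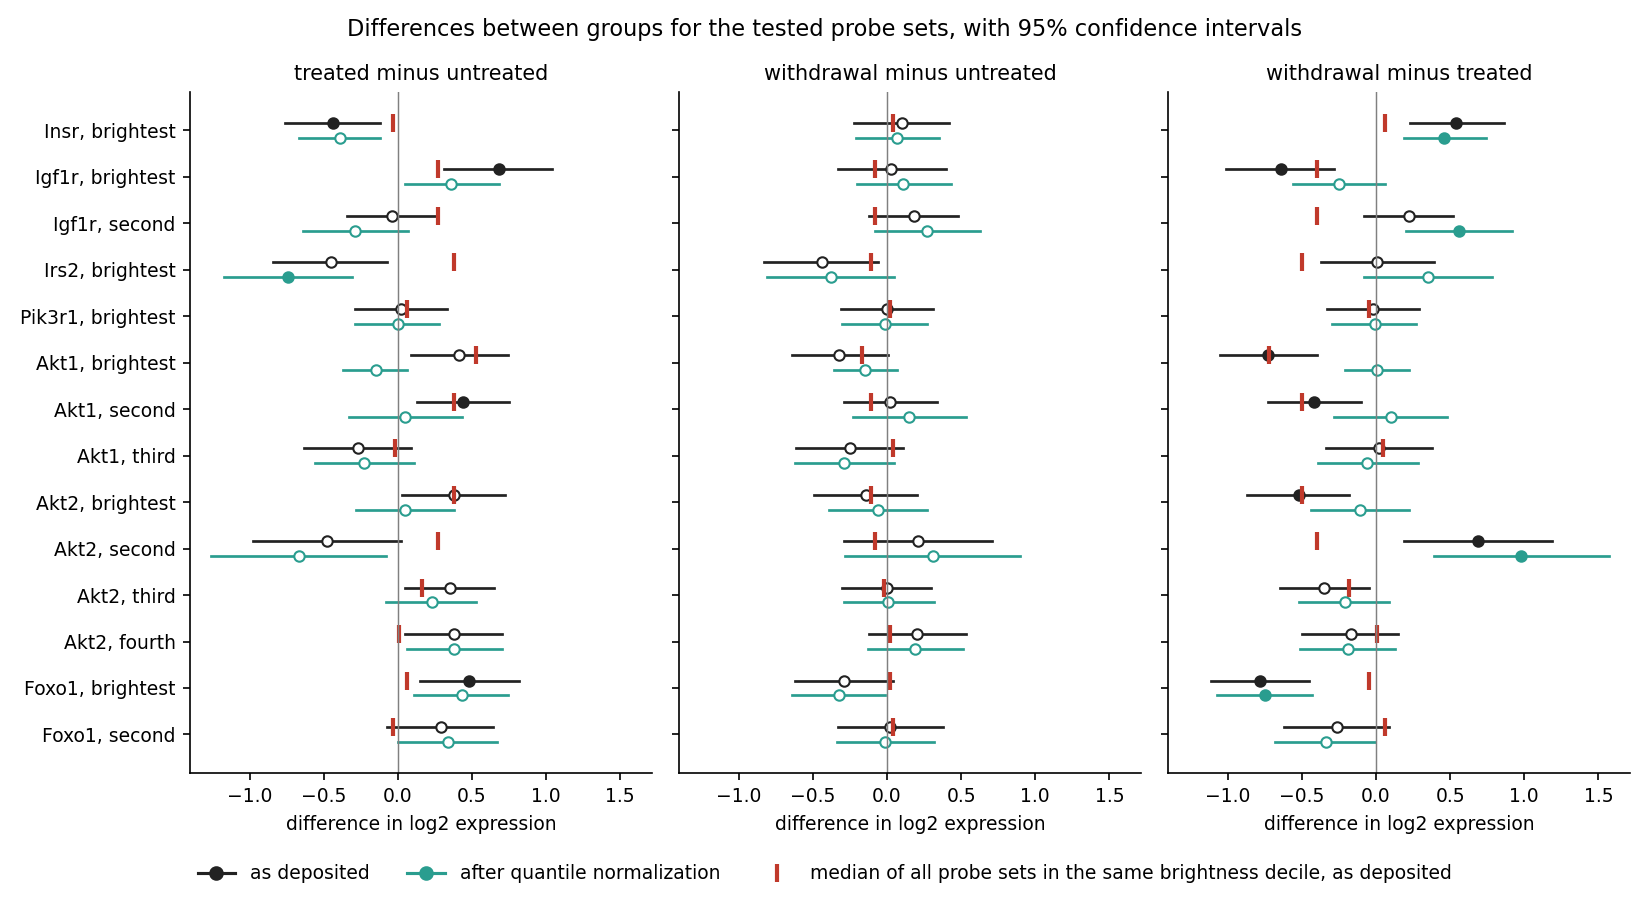
Differences in log2 expression (horizontal axis) for the 14 tested probe sets in the 3 comparisons, with 95% confidence intervals from limma, as deposited (black) and after quantile normalization (green). Filled points passed an adjusted p under 0.05, and red ticks are the medians of all tested probe sets in the same brightness decile. For withdrawal minus treated, the brightest Foxo1 and Insr probe sets lie away from their ticks. So do other probe sets, such as Irs2 and the second ones of Igf1r and Akt2, while the brightest Akt1 and Akt2 probe sets lie on theirs.

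Counted by the brightest probe set of each gene, 3 of 7 genes passed between treated and untreated arrays, 2 higher (Igf1r, Foxo1) and 1 lower (Insr). Of all 11619 genes tested 29.7% passed, 24.0% higher and 5.74% lower. By probe set the count was 4 of 14, against 28.1% of all probe sets. After quantile normalization 1 of 7 genes passed, Irs2, which was lower, where 16.5% of all genes passed and 8.88% were lower. By probe set that was 1 of 14, against 17.2%. With 7 genes, these counts do not set the members apart from all genes. As deposited, values did not overlap between the groups for 6 of 7 genes, and for 44.7% of all genes. After quantile normalization they did not overlap for 4 of 7 genes, and the share of all genes on that scale is not given here.

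Between withdrawal and treated arrays 5 of 7 genes passed, 1 higher (Insr) and 4 lower (Igf1r, Akt1, Akt2, Foxo1), and 5 of 7 did not overlap. Of all genes 46.3% passed, 8.46% higher and 37.9% lower, and 56.1% did not overlap. By probe set the count was 7 of 14, against 43.8%. After quantile normalization 2 of 7 genes passed, Insr higher and Foxo1 lower, against 27.6% of all genes, and 4 of 14 probe sets, against 29.1%. Insr and Foxo1 were thus the genes called in the same direction on both scales in this comparison. The comparisons with the treated group share its 3 arrays, so the opposite signs in them are not independent of each other.

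Between withdrawal and untreated arrays 0 of 7 genes passed in limma, on either scale, with 1 of 7, Irs2, at an unadjusted p under 0.05 as deposited. Only 0.198% of all genes passed as deposited and 0.551% after quantile normalization. Values did not overlap for 2 of 7 genes, Insr and Irs2, and for 19.2% of all genes. A p that misses the threshold here does not show equal levels, and the 95% intervals of the 7 genes reached from −0.83 to 0.42.

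The genes around the 8 were counted in 6 lists, each to be read against the shares of all genes given above: 24.0% higher and 5.74% lower for treated against untreated arrays, and 8.46% higher and 37.9% lower for withdrawal against treated arrays. After quantile normalization 16.5% and 27.6% of all genes were called in these comparisons. All 12 listed genes for ligands and binding proteins were tested. Between treated and untreated arrays 2 rose, Igf2 by 0.83 (adjusted p = 0.00172) and Igfbp4 by 0.45, and the other 10 did not pass, with a list median of 0.10 against 0.22 for all genes. After quantile normalization 0 rose and 2 fell, the binding protein genes Igfbp5 at −0.78 and Igfbp6 at −0.73, with Igf2 at 0.33 (adjusted p = 0.147) and Igfbp4 at −0.06. From treated to withdrawal arrays Igf2 fell by 0.74 and Igfbp7 by 0.56 as deposited. After quantile normalization 4 of 12 rose, where 27.6% of all genes were called in either direction: Igf1 by 0.59 (adjusted p = 0.0131), Igfbp2 by 0.42, Igfbp5 by 0.83 and Igfbp6 by 0.63. Igf2 encodes a fetal growth factor that binds the IGF1 receptor. The insulin genes Ins1 and Ins2, whose products bind the insulin receptor, had treated minus untreated values of 0.03 (adjusted p = 0.874) and 0.12 (adjusted p = 0.401), at a brightness where the arrays may no longer resolve differences.

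Of 16 tested genes for other receptors and adaptors at the receptor, 4 rose and 0 fell on treated against untreated arrays, with a median of 0.22 equal to that of all genes. They were the phosphatase gene Ptpn11 at 0.62, the feedback inhibitor gene Socs3 at 0.57, and the adaptor genes Grb2 and Gab1 at 0.48 each. On withdrawal against treated arrays 5 fell, led by Ptpn11 at −0.79 and Grb2 at −0.67, with a list median of −0.20 against −0.27 for all genes. After quantile normalization none of these passed, and the count was 0 of 16 in the first comparison and 1 of 16 in the second. That gene was Grb10, an inhibitor of both receptors, at 0.39 (adjusted p = 0.0406).

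Of 10 tested genes of phosphoinositide 3-kinase and the enzymes around it, 2 rose under the drug, Pik3ca, a catalytic subunit, by 0.49 and Pdpk1, the kinase that activates AKT, by 0.51. After withdrawal these fell, against treated arrays, by 0.55 and 0.67, Inppl1 fell by 0.54 and Inpp5d rose by 0.50. Inpp5d and Inppl1 encode the lipid phosphatases SHIP1 and SHIP2, which remove the lipid that recruits AKT. After quantile normalization Pik3ca, Pdpk1 and Inppl1 no longer passed: Pik3ca was at 0.22 (adjusted p = 0.375) and −0.20 (adjusted p = 0.367), Pdpk1 at 0.17 (adjusted p = 0.346) and −0.23 (adjusted p = 0.159), and Inppl1 at −0.18 (adjusted p = 0.194) in the second comparison. The counts became 0 higher and 1 lower of 10, and 2 higher and 0 lower. On that scale Inpp5d fell by 0.49 (adjusted p = 0.014) on treated against untreated arrays and was higher by 0.77 (adjusted p = 0.00153) on withdrawal than on treated arrays. Pik3cd, a catalytic subunit of blood cells, was then higher by 0.68 in the second comparison. Inpp5d, like Pik3cd, is known mainly from blood cells, whose marker levels are given with the other cell types.

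Of 20 tested AKT regulators and genes of the mTOR branch, 4 rose under the drug and 0 fell, beside 24.0% of all genes higher. They were Rheb, the activator of mTOR complex 1, at 0.79, Eif4ebp1, a translation repressor that it acts on, at 0.58, the translation factor gene Eif4e at 0.58, and Trib3, an AKT-binding pseudokinase gene, at 0.51. Between withdrawal and treated arrays 7 of 20 fell, beside 37.9% of all genes, among them Rheb at −0.99, Deptor at −0.89 and Sgk1 at −0.83, with a list median of −0.36 against −0.27 for all genes. After quantile normalization 0 of 20 passed in the first comparison and 2 in the second. These were Gsk3b, which encodes a kinase that AKT inhibits, at −0.59 (adjusted p = 0.0149) and Tsc1, part of the brake on Rheb, at −0.45 (adjusted p = 0.0166). Before it, the same 2 were at −0.57 and −0.56 and had passed.

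Of 19 tested FOXO factors and genes known as FOXO targets, 6 rose and 1 fell on treated against untreated arrays, beside 24.0% higher and 5.74% lower of all genes, with a median of 0.37 against 0.22. Cited2 rose by 0.93, Sod2, a mitochondrial antioxidant enzyme gene, by 0.82, Pdk4, an inhibitor of pyruvate oxidation, by 0.77 and Foxa2, an islet transcription factor gene, by 0.74. Txnip, which encodes a thioredoxin-binding protein, fell by 1.49. Between withdrawal and treated arrays 9 of 19 fell and 0 rose, beside 37.9% of all genes lower, with a median of −0.53 against −0.27 for all genes, and Pdx1, whose product opposes FOXO1 in mice, was among them at −1.07. After quantile normalization 4 fell, Foxa2 at −0.45, Pdx1 at −0.66, Sesn1 at −0.69 and Pdk4 at −0.53, and Txnip rose by 0.84, with a median of −0.28 against −0.04. In treated against untreated arrays the counts were then 0 rising and 2 falling, Txnip at −2.05 and Cat at −0.56. Pdx1 is also counted among the beta cell markers, and whether the listed genes followed Foxo1 was not tested. The sister factors of Foxo1 did not pass: Foxo3 was at 0.37 (adjusted p = 0.0857) and −0.40 (adjusted p = 0.0504), and Foxo4 at −0.12 and 0.07.

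Irs2 is known as a target of cyclic AMP signalling through CREB in beta cells. Genes of that signalling, such as Creb1 and Crtc2, and genes linked to it were therefore listed. Of 15 tested, 5 rose and 2 fell on treated against untreated arrays as deposited, and 4 rose and 3 fell after quantile normalization. Of all genes 29.7% and 16.5% were called, and the list medians were 0.16 against 0.22 for all genes and −0.03 against 0.02. The immediate early genes Fos, Fosb, Egr1 and Junb rose on both scales, by 2.05, 1.67, 1.62 and 1.12 as deposited. Ppargc1a, a coactivator gene that CREB induces, fell by 0.87 (adjusted p = 0.0042) and Pde10a, a phosphodiesterase gene, by 0.70 (adjusted p = 0.00494), and by 0.95 and 1.04 after quantile normalization. Crem was at −0.74 (adjusted p = 0.0125) and passed on that scale only. Irs2, at −0.74 on the same scale, had the sign of Ppargc1a, Pde10a and Crem and not that of Fos, Fosb, Egr1 and Junb. The other listed genes did not pass there and had either sign, among them Nr4a2 at −0.53, Nr4a1 at 0.08 and Dusp1 at 0.32. Of the 15, 2 rose and 6 fell between withdrawal and treated arrays as deposited, with Ppargc1a at 0.96 and Fos at −1.74, where 46.3% of all genes were called. After quantile normalization 2 rose and 2 fell, where 27.6% of all genes were called: Fos was at −1.03 and Egr1 at −0.95, while Fosb at −0.64 (adjusted p = 0.241) and Junb at −0.16 (adjusted p = 0.326) no longer passed. Ppargc1a was at 1.08 and passed, while Pde10a at 0.35 and Crem at 0.28 did not. Irs2 averaged 7.6 on treated and 7.95 on withdrawal arrays on that scale and did not pass. Whether Irs2 followed any of these genes was not tested. Over all 6 lists, the 1 gene past the threshold between withdrawal and untreated arrays was Txnip, at −1.44 as deposited and −1.21 after quantile normalization.

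**Figure D3:**
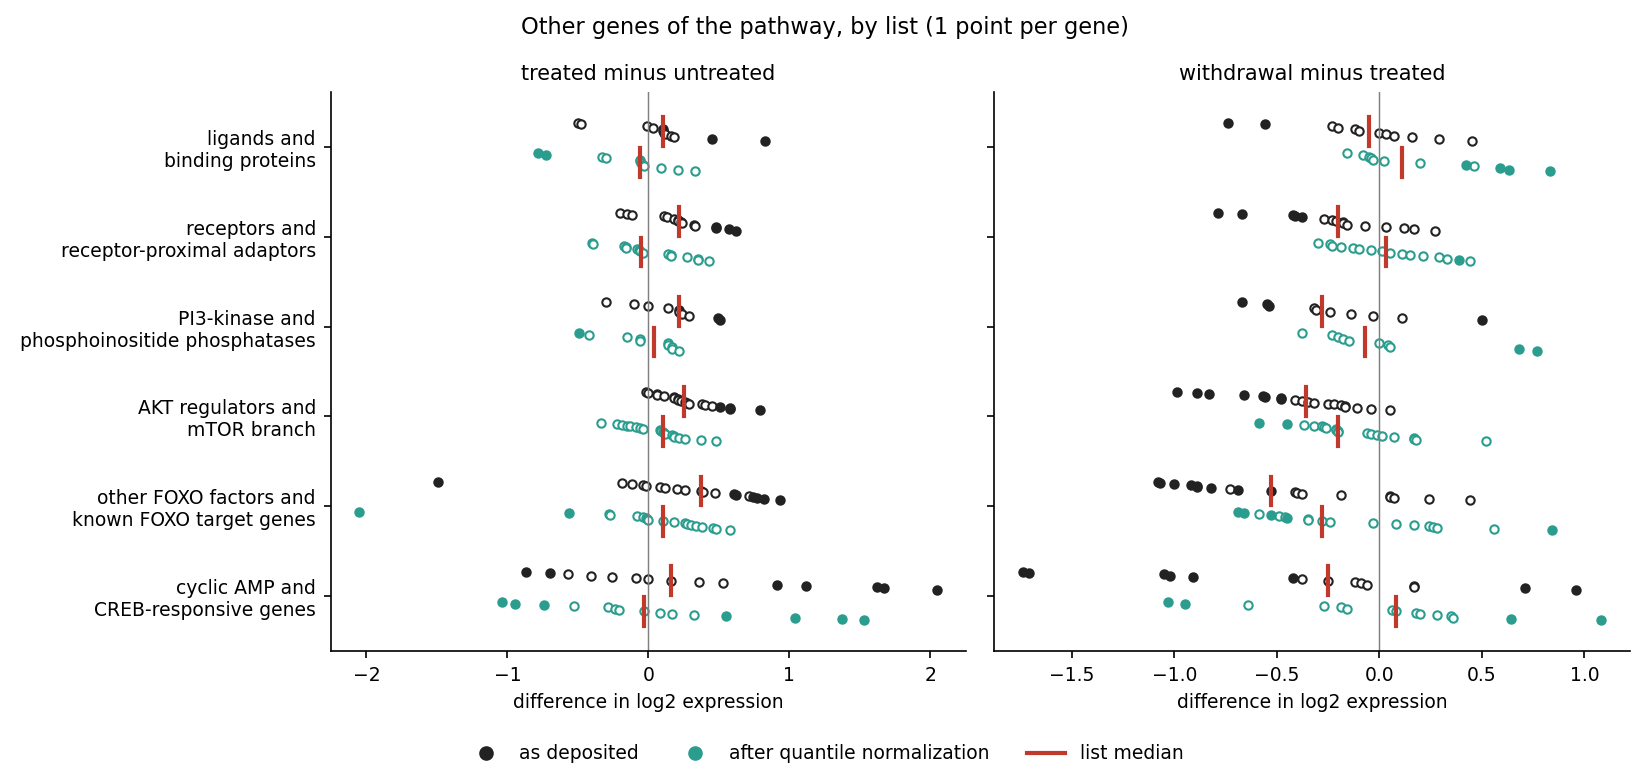
Differences in log2 expression (horizontal axis) of the tested genes of 6 lists around the insulin and IGF1 pathway, for treated minus untreated and withdrawal minus treated, as deposited (black) and after quantile normalization (green). Each point is 1 gene by its brightest probe set, filled points passed an adjusted p under 0.05, and red bars are list medians; the median of the FOXO list for withdrawal minus treated is −0.53 as deposited and −0.28 after quantile normalization.

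Means of several marker lists differed between the groups. As deposited, 0 of 7 acinar markers passed in any comparison. Marker counts are to be read against the shares of all genes. As deposited, 24.0% were higher and 5.74% lower on treated against untreated arrays, and 8.46% higher and 37.9% lower on withdrawal against treated arrays. After quantile normalization 16.5% and 27.6% were called. Medians of all genes were 0.22 and −0.27 as deposited, and 0.02 and −0.04 after quantile normalization. The mean over 7 of 10 beta cell markers that had a probe set was 11.88 to 12.04 on treated, 11.15 to 11.36 on withdrawal and 11.35 to 11.64 on untreated arrays, and 11.65 to 11.74, 11.37 to 11.42 and 11.57 to 11.65 after quantile normalization. Of the 7, 3 were higher on treated than on untreated arrays as deposited, and 0 after quantile normalization. On withdrawal against treated arrays 4 of 7 were lower as deposited and 3 of 7 after quantile normalization. Markers of the other islet hormone cells, 5 of 6 with a probe set, shifted most as deposited in both comparisons with the treated arrays. They averaged 11.37 to 11.62 on treated, 10.24 to 10.55 on withdrawal and 10.43 to 10.68 on untreated arrays. After quantile normalization they averaged 11.18 to 11.25, 10.52 to 10.62 and 10.51 to 10.74. Their median difference was 1.14 for treated minus untreated (3 of 5 higher) and −1.14 for withdrawal minus treated (5 of 5 lower), and 0.77 (3 of 5 higher) and −0.60 (4 of 5 lower) after quantile normalization. As deposited, Foxo1 had its highest and lowest means in the same groups as both of these lists. The brightest Akt1 and Akt2 probe sets shared this, while Pik3r1 was level and those of Insr, Igf1r and Irs2 did not share it. Bright probe sets in general went the same way. The brightest decile had medians of 0.53 for treated minus untreated and −0.17 for withdrawal minus untreated. The likeness to these lists was thus not particular to Foxo1. Lymphocyte markers, 6 of 6 with a probe set, averaged 5.57 to 5.75 on treated, 6.12 to 6.32 on withdrawal and 6.01 to 6.16 on untreated arrays, the order seen for Insr, and 5.57 to 5.79, 6.12 to 6.35 and 6.02 to 6.19 after quantile normalization. On both scales 3 of 6 were lower on treated than on untreated arrays, and 3 of 6 higher on withdrawal than on treated arrays. As deposited, Lck had the opposite sign in these comparisons, at 0.08 and −0.07, and did not pass. Macrophage and myeloid markers, 9 of 9, averaged 6.92 to 8.19 on treated, 7.91 to 8.09 on withdrawal and 7.52 to 7.65 on untreated arrays. After quantile normalization their ranges no longer overlapped between treated (6.85 to 7.82) and withdrawal arrays (8.11 to 8.21), and 5 of 8 tested were higher on withdrawal arrays, with a median difference of 0.89, beside the Inpp5d, Pik3cd and Insr differences on that scale. Stellate and fibroblast markers, 7 of 7, averaged 9.19 to 10.60, 10.03 to 10.25 and 9.52 to 9.98 in the same order of groups. After quantile normalization 6 of 7 were higher on withdrawal than on treated arrays, with a median of 0.78. Endothelial markers, 5 of 6 with a probe set, averaged 8.86 to 9.45, 8.57 to 8.81 and 8.88 to 9.29, and after quantile normalization 3 of 5 were lower on treated than on untreated arrays, with a median of −0.41. Duct markers (4 of 5 with a probe set) averaged 8.10 to 9.41, 8.41 to 8.60 and 8.39 to 8.66, and adipocyte markers (5 of 5) 5.56 to 5.74, 5.67 to 5.85 and 5.64 to 5.75, with all 3 groups overlapping in both lists. The duct and adipocyte means joined genes of opposite sign. For withdrawal minus treated as deposited, Fabp4 was at −1.19, Lep at 0.79 and Adipoq at 0.35. In the duct list Krt7 was at −0.71 and Cftr at 0.69, and each of these genes passed. The first treated array had the widest spread of values and the lowest Irs2 value. The part of cell composition in the differences of Foxo1, Insr, Irs2, Inpp5d and Pik3cd was not tested.

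Genes whose quantile-normalized pattern over the 9 arrays lay closest to those of the called genes were named by root mean square distance of centred values, out of 11504 genes compared. Closest to Insr were Irx4 at 0.05, Glyctk at 0.05 and Kdm5b at 0.07, where the Insr pattern itself had a root mean square of 0.24. Closest to Foxo1 were Ccnd2, the cyclin D2 gene, at 0.10, Bbs2 at 0.11 and Rnf25 at 0.11, beside 0.35 for Foxo1. For the brightest Igf1r probe set they were Gpr161 at 0.09, Dennd1a at 0.10 and Aldh3b1 at 0.10, beside 0.22. For Akt1 (Scp2, Atg16l2, Uqcr10) and Akt2 (Frmpd2, Clip1, Tmem19) the patterns themselves were small, at 0.09 and 0.17, so a short distance there says little. These are likenesses over 9 arrays that share their groups.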

How the data were processed

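The authors' deposited table held values between 2.578 and 14.36 that were taken to be log2 from this range. RMA and MAS5 are named, per the submitters' processing notes, with their roles and versions not given in the sources used here. Of 31099 probe sets, 57 controls were left out. Gene names came from the platform annotation, updated through the gene table of GRCr8 (20826 probe sets with 1 gene, 436 with several, 9780 unlisted). Probe sets in the lowest 33.3% by mean were not tested, which left 20695. A gene is represented by its brightest probe set.

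Differences were tested with limma 3.58.1 in R 4.3.3 (a term per group, all 9 arrays, Benjamini-Hochberg adjusted p under 0.05 over all tested probe sets). In simulated data of 20695 probe sets, with independent probe sets and no shift with brightness, it recovered 76%, 79% and 77% of changes of 1 on the log2 scale for treated against untreated, withdrawal against untreated and withdrawal against treated arrays, with 9, 9 and 12 false calls. For each comparison 100 probe sets were changed by 1 and 100 by 2. Called member differences were all smaller than 1, and changes of their size were not simulated. The genes and lists were chosen with earlier results of these data known. Named genes were all members, listed genes past the threshold and the 3 nearest in pattern to each member called as deposited. Foxo3, Foxo4, Ins1 and Ins2 were added after their values were seen. Creb1, Nr4a1 and Lck are also named, though they passed in no comparison. Alternatives were quantile normalization, median centring, other filters, array weights, a robust eBayes fit with a trend, a replicate block, a fit of the 6 arrays compared, each array omitted in turn, and averaging all probe sets per gene. Quantile normalization with an array omitted or with a block was added after seeing the data. Promoters are RefSeq's. The number of arrays limits the precision.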

Additional observations from a re-analysis of the deposited data

How the results depend on the processing

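Quantile normalization lowered the probe sets called from 5817 to 3558 between treated and untreated arrays (higher and lower from 4318 and 1499 to 1604 and 1954) and from 9057 to 6032 between withdrawal and treated arrays (2312 and 6745 to 3011 and 3021), and raised them from 33 to 87 between withdrawal and untreated arrays. It took the members called from 3 to 1 and from 5 to 2. It turned Igfbp4 (−0.06) and Grb2 (−0.08) for treated minus untreated, and Grb2 (0.05) and the Akt1 probe sets (0.01 and 0.10) for withdrawal minus treated. The deposited and quantile-normalized values differ by a shift that depended on brightness, and its cause was not tested. In fits of the 6 arrays compared, 3209 probe sets and 1 member were called between treated and untreated arrays, and 494 probe sets between withdrawal and untreated arrays. Array weights gave 3275 probe sets and 2 members in that last comparison. Averaging all probe sets of a gene left 3 members between withdrawal and treated arrays. The causes of these were not tested.

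With each array omitted in turn, members called ranged from 0 to 3, 0 to 0 and 3 to 5 (treated against untreated, withdrawal against untreated, withdrawal against treated) and probe sets from 2033 to 6319, 7 to 398 and 5587 to 9511. After quantile normalization the ranges were 0 to 2, 0 to 0 and 1 to 2, and 1268 to 4571, 26 to 409 and 2595 to 6794. Over both scales, the second Akt1 probe set then ranged from −0.10 to 0.56 for treated minus untreated and from −0.54 to 0.25 for withdrawal minus treated, the brightest Akt1 probe set from −0.82 to 0.05 and the brightest Akt2 probe set from −0.65 to 0.01. For Akt2, and for the second Akt1 probe set in treated minus untreated, the sign turned only where quantile normalization and an omitted array went together.

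Arrays with the same replicate number were not treated as paired: their deviations correlated at −0.28 to 0.5, with 5 of 9 pairs over 0.1 and 1 of 9 arrays closest to its own number in both other groups. With the replicate block, 6 members were called between treated and untreated arrays and 50 probe sets between withdrawal and untreated arrays. The block after quantile normalization gave 72 probe sets in the latter and 2 members between withdrawal and treated arrays. Median centring, other filters and the robust fit with a trend left all counts of members and probe sets within 1.5 times. With a filter on the lowest 50%, 6 members were tested, and Insr, at the 39.7th percentile, was not among them. Linear offsets before logarithms were not run, since the values are logarithms. The 3 arrays a group limit small differences, and dim probe sets (Irs1) and the brightest ones (insulin) limit what the arrays can show.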
